A study of Caenorhabditis elegans with 18 samples.

Results

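Translation initiation and elongation factor genes were followed in RNA from whole first-stage (L1) larvae of Caenorhabditis elegans. The group was defined by name: every gene of the count table whose WormBase symbol begins with eif-, eef-, ife-, iff-, ifg- or inf-. It held 40 of the 46904 genes in the table, and all 40 had enough reads to be tested. By role they are 2 genes for eIF1 and eIF1A, 3 for eIF2, 5 for eIF2B, 2 for eIF2A and eIF2D, 11 for eIF3 (subunits B to L), 2 for eIF4G and eIF4A, 1 for eIF4A3, 5 for eIF4E, 2 for eIF5A, 1 for eIF6, 5 for eEF1 and 1 for eEF2. Some known translation factors have other names in the worm and are not among them, such as egl-45, which encodes eIF3 subunit A. The 6 groups, of 3 libraries each, were raga-1(ok386) fed, raga-1(ok386) starved, rsks-1(ok1255) fed, rsks-1(ok1255) starved, and wild type fed and starved, where wild type is the laboratory strain N2 and the labels give N2 as the line of both mutants. Per the labels, eggs freed by bleaching were held for 24 h in M9 buffer so that larvae hatched without food and arrested. Starved larvae were taken in that state and fed larvae after 4 h on plates with OP50 bacteria, in cultures kept at 20 °C. The design text states that the study asked how each genotype responds to nutrients.

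Eukaryotic translation starts when eIF2, loaded with GTP and initiator tRNA, joins the small ribosomal subunit together with eIF1, eIF1A and the large scaffold complex eIF3. The cap-binding protein eIF4E, the scaffold eIF4G and the helicase eIF4A then bring this complex to the mRNA, and eIF2B recharges spent eIF2 with GTP. During elongation eEF1A delivers aminoacyl-tRNA, the eEF1B complex recharges eEF1A, eEF2 moves the ribosome along the mRNA, and eIF5A helps with sequences that are slow to translate. RAGA-1 is the worm form of RagA, a small GTPase that tells the growth-promoting kinase complex TORC1 whether amino acids are present. RSKS-1 is the worm S6 kinase, an enzyme downstream of TORC1. Both proteins are known in many animals to promote translation and growth.

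Library totals ranged from 9929323 to 18539402 expected counts. The raga-1 gene had 0 counts in all 6 raga-1 libraries. The rsks-1 gene averaged 24.8 ± 2.65 and 37.6 ± 3.69 CPM (counts scaled to a common library size with TMM factors) in fed and starved rsks-1 larvae, and 171 ± 9.24 and 186 ± 9.39 CPM in fed and starved N2 larvae (SD, n = 3 each), so reduced but measurable RNA of that gene was present. The RNA came from whole larvae, in which fewer cells of a type and less RNA per cell cannot be told apart. No gene of the intestine, muscle, neuron, hypodermis and germline marker lists was at 0 in all libraries. The summed intestine markers were 3119.8 to 3197 CPM in fed and 2711 to 2768 CPM in starved raga-1, 3277 to 3298 and 2579 to 2601 CPM in fed and starved rsks-1, and 3902 to 3983 and 2071 to 2105 CPM in fed and starved N2. On feeding 2 of the 6 intestine genes were higher and 2 lower in raga-1, 3 higher and 2 lower in rsks-1, and 2 higher and 3 lower in N2. The summed body wall muscle markers were 8966 to 9459 CPM in fed and 11048 to 11782 CPM in starved raga-1, 5258 to 5507 and 10373 to 10477 CPM in rsks-1, and 6353 to 6584 and 8127 to 8154 CPM in N2. Of the 4 muscle genes 1 was higher and 3 lower on feeding in raga-1, none higher and 4 lower in rsks-1, and 1 higher and 3 lower in N2. The summed neuron markers were 535 to 553 CPM in fed and 631 to 659 CPM in starved raga-1, 508 to 518 and 583 to 599 CPM in rsks-1, and 436 to 457 and 557 to 581 CPM in N2. On feeding 6 of the 6 neuron genes were lower in raga-1, 3 in rsks-1 and 6 in N2, and 5 were higher in fed raga-1 and 5 in fed rsks-1 than in fed N2. The summed hypodermis markers were 128 to 138 CPM in fed and 144 to 156 CPM in starved raga-1, 182 to 183 and 132 to 136 CPM in rsks-1, and 143 to 147 and 130.1 to 135 CPM in N2, and all 4 that were tested were higher in fed rsks-1 than in fed N2. The part of these markers in the results was not tested. The labels do not say whether replicates were separate cultures, so p-values measure the spread between these libraries, which may be technical.

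Scaled for gene length, 5 of the 6 elongation factor genes and the eIF5A gene iff-2 held the top of the order in all 6 groups, and ife-5 held the bottom. The highest level was that of eef-1A.1 in all 6 groups, at 5964 CPM per kilobase of exon in fed and 5179.8 in starved raga-1, 7841 and 6496 in rsks-1, and 8780.1 and 6877 in N2. The lowest was ife-5, at 5.63 CPM per kilobase in fed N2. In fed N2 larvae the order by length-scaled level ran from eef-1A.1 through eef-1A.2 (3637 ± 90.7, SD, n = 3), eef-2 (3452 ± 53.2), eef-1G (2125 ± 62.9), iff-2 (1847 ± 11.3) and eef-1B.1 (1733 ± 43.3) to inf-1, the first gene of cap-dependent initiation (972 ± 15.7). The libraries of neighbours in this order did not overlap. In starved N2 larvae eef-1A.2 was the sixth and inf-1 the tenth of the 40, at 575 ± 3.72 and 120.5 ± 1.98 CPM per kilobase. The 6 elongation factor genes together took 2.40 ± 0.0387% of all counts in fed and 1.995 ± 0.0463% in starved raga-1, 3.14 ± 0.0219% and 2.52 ± 0.0341% in fed and starved rsks-1, and 3.03 ± 0.0716% and 2.47 ± 0.0242% in fed and starved N2 (SD, n = 3 libraries each). The 34 other genes took 0.735 ± 0.00670% in fed and 0.426 ± 0.00520% in starved raga-1, 0.866 ± 0.00850% and 0.395 ± 0.00280% in rsks-1, and 1.01 ± 0.00930% and 0.413 ± 0.00180% in N2. Their fed shares stood in the order raga-1, rsks-1, N2 from low to high, and their starved shares differed much less between genotypes.

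Nearly every translation factor gene was higher after feeding, in all 3 genotypes. Of the 40 genes 39 were higher and none lower in raga-1 (edgeR quasi-likelihood test, Benjamini-Hochberg adjusted p below 0.05), 40 higher in rsks-1, and 39 higher and none lower in N2. Among all 14073 genes tested 29.4%, 35.7% and 36.5% were higher in raga-1, rsks-1 and N2 by the same rule, and 32.9%, 35.2% and 37.4% were lower. The median log2 change on feeding was 0.76 in raga-1, 1.21 in rsks-1 and 1.42 in N2, beside -0.05, -0.02 and -0.07 over all genes tested. At least 2-fold higher were 11 of the 40 in raga-1, 23 in rsks-1 and 29 in N2, against 4.31%, 13% and 16.3% of all genes. Fed and starved libraries did not overlap for 39 genes in raga-1, 38 in rsks-1 and 39 in N2, where 65%, 72.9% and 75% of all genes had groups that did not overlap. The gene outside the calls in raga-1 and N2 was ife-5. The size of a change depends on scaling: with library totals alone in place of TMM factors the median of all genes on feeding moved to -0.15 in raga-1, -0.22 in rsks-1 and -0.37 in N2, and that of the translation factor genes to 0.66, 1.01 and 1.12. With that scaling 38 genes were higher and none lower in raga-1, 36 higher and 1 lower in rsks-1 (ife-1), and 34 higher and 1 lower in N2 (eef-1B.1).

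**Figure D1:**
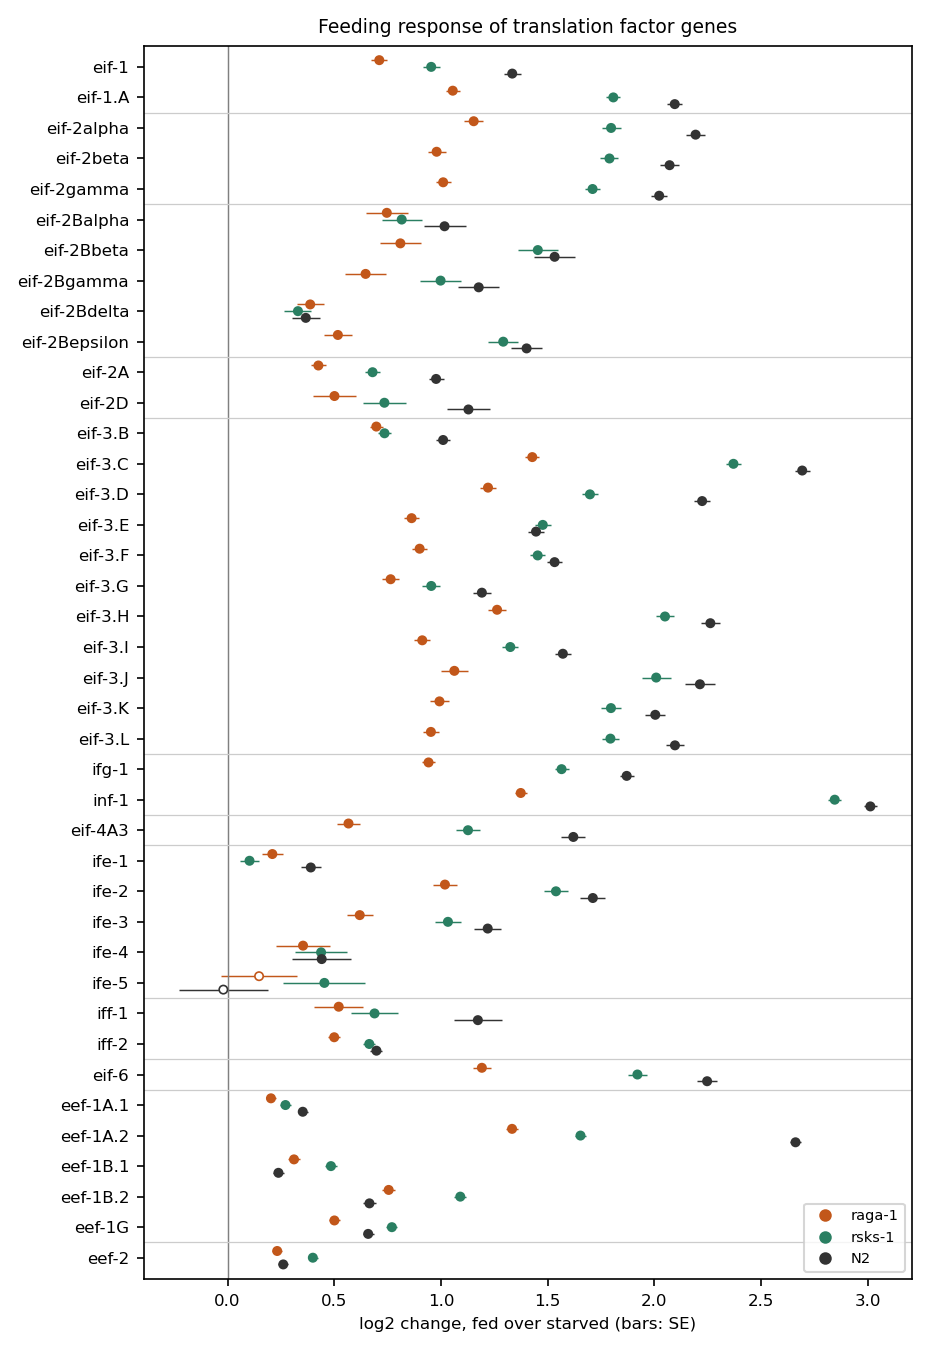
Log2 change on feeding (fed over starved, x axis) of each of the 40 genes (y axis, with lines between complexes) in raga-1 (orange), rsks-1 (green) and N2 (dark); bars are standard errors, and filled points passed the adjusted p threshold of 0.05. In most initiation factor rows the raga-1 point lies farthest left and the N2 point farthest right, with inf-1 at 1.37, 2.85 and 3.01 in raga-1, rsks-1 and N2.

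Genes for the proteins that set up the scanning complex were higher on feeding as a block. The 3 subunits of eIF2, which carries the initiator tRNA, changed by nearly the same amount, 0.98 to 1.15 in raga-1, 1.71 to 1.80 in rsks-1 and 2.02 to 2.19 in N2 on the log2 scale. The alpha subunit, whose phosphorylation under stress shuts down initiation, had 166, 151 and 149 CPM in fed and 71.9, 67.6 and 69.9 CPM in starved raga-1 libraries. It had 215, 231 and 208 CPM in fed and 65.6, 64.1 and 58.9 CPM in starved rsks-1 libraries, and 309.9, 296 and 291 CPM in fed and 65.3, 63.2 and 67.7 CPM in starved N2 libraries. Fed libraries were thus above starved ones in each genotype without overlap, and the N2 fed libraries were the highest of the 18. The log2 changes of eif-2alpha were 1.15 (SE 0.04, adjusted p = 1.65e-50) in raga-1, 1.80 (SE 0.04, adjusted p = 2.46e-70) in rsks-1 and 2.19 (SE 0.05, adjusted p = 1.54e-79) in N2. The start codon selection factors eIF1 and eIF1A are encoded by eif-1 and eif-1.A. The change of eif-1.A was 1.06 (SE 0.03) in raga-1, 1.81 (SE 0.03) in rsks-1 and 2.10 (SE 0.03) in N2, and that of eif-1 was 0.71 (SE 0.04), 0.95 (SE 0.04) and 1.33 (SE 0.04) in the same order.

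The 5 subunits of eIF2B, the exchange factor for eIF2, responded less evenly. The gene eif-2Bdelta, for a regulatory subunit, changed least in every genotype. It had 47.9, 46.3 and 40.9 CPM in fed and 32.1, 36.7 and 34.3 CPM in starved raga-1, 50.1, 52.8 and 48.2 CPM in fed and 38.5, 40.6 and 41.1 CPM in starved rsks-1, and 59.2, 61.6 and 61.7 CPM in fed and 45.5, 48.9 and 46.9 CPM in starved N2. The fed and starved libraries did not overlap within a genotype, and raga-1 libraries were the lowest in each state. Its log2 change was 0.39 (SE 0.06) in raga-1, 0.33 (SE 0.06) in rsks-1 and 0.37 (SE 0.06) in N2, and with library totals alone it no longer passed the threshold in rsks-1 (0.13) or N2 (0.07). The gene eif-2Bbeta, for another of the regulatory subunits, changed most, by 0.81 (SE 0.10), 1.45 (SE 0.09) and 1.53 (SE 0.10) in raga-1, rsks-1 and N2. The gene for the catalytic epsilon subunit, eif-2Bepsilon, changed by 0.52 (SE 0.07), 1.29 (SE 0.07) and 1.40 (SE 0.07). Of the exons of eif-2Bdelta 131 bases overlap a gene on the other strand, and since the sources used here do not say whether counting used strand, reads there cannot be assigned with certainty.

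The eIF3 genes were the largest complex measured, and all 11 were higher on feeding in each genotype. Their median log2 change was 0.95 in raga-1, 1.70 in rsks-1 and 2.00 in N2. Subunit C, one of the core scaffold subunits, changed most in every genotype and subunit B, another core subunit, least. The gene eif-3.C had 403, 396 and 413 CPM in fed and 146, 151 and 153 CPM in starved raga-1, 535, 536 and 522 CPM in fed and 104, 101 and 103 CPM in starved rsks-1, and 718, 761 and 734 CPM in fed and 113, 117 and 112 CPM in starved N2. These are log2 changes of 1.43 (SE 0.03, adjusted p = 3.48e-74), 2.37 (SE 0.03, adjusted p = 1.62e-97) and 2.69 (SE 0.04, adjusted p = 7.81e-104). The gene eif-3.B had 333, 334 and 339.9 CPM in fed and 209, 207 and 205 CPM in starved raga-1, 476, 493 and 484 CPM in fed and 281, 301 and 291 CPM in starved rsks-1, and 602, 595 and 613 CPM in fed and 302, 299 and 298 CPM in starved N2. Its log2 changes were 0.70 (SE 0.03, adjusted p = 6.76e-43), 0.74 (SE 0.03, adjusted p = 3.54e-46) and 1.01 (SE 0.03, adjusted p = 4.09e-60). Both genes had fed libraries above starved ones without overlap, but starved raga-1 libraries were above starved N2 for eif-3.C and below starved N2 for eif-3.B. Among the peripheral subunits, eif-3.K and eif-3.L changed by 2.004 and 2.10 in N2, and the loosely bound subunit eif-3.J by 2.21. The value of eif-3.L was not a whole number in any of the 18 libraries, a value RSEM gives when reads are divided between loci.

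Within the cap-recognition machinery, the helicase gene inf-1 (eIF4A; chromosome III, 6930134 to 6931953, plus strand, in WBcel235) had the greatest log2 change of the 40 in rsks-1 and N2. It had 907, 870.2 and 895 CPM in fed raga-1, against 340.1, 343 and 347 CPM in starved raga-1. It had 1129, 1118 and 1110.2 CPM in fed rsks-1, against 154, 158 and 154 CPM in starved rsks-1. In N2 it had 1516, 1564 and 1528 CPM in fed libraries, against 187, 193 and 191 CPM in starved ones. The 6 groups did not overlap for this gene, with starved rsks-1 the lowest and fed N2 the highest. The fed to starved ratio was 2.59 in raga-1, 7.19 in rsks-1 and 8.07 in N2, or log2 changes of 1.37 (SE 0.03, adjusted p = 3.26e-78), 2.85 (SE 0.03, adjusted p = 1.00e-111) and 3.01 (SE 0.03, adjusted p = 7.31e-115). The scaffold gene ifg-1 (eIF4G; chromosome II, 8217222 to 8222396, plus strand) had 459, 438 and 457 CPM in fed and 231, 234 and 239 CPM in starved raga-1, 504, 494 and 498 CPM in fed and 168, 172 and 165 CPM in starved rsks-1, and 713, 711 and 737 CPM in fed and 206, 189.7 and 196 CPM in starved N2. Its log2 changes were 0.94 (SE 0.03, adjusted p = 3.41e-56), 1.57 (SE 0.03, adjusted p = 2.98e-79) and 1.87 (SE 0.03, adjusted p = 3.56e-88). The helicase eif-4A3, a core protein of the exon junction complex and not of cap-dependent initiation, changed by 0.57 (SE 0.05), 1.13 (SE 0.05) and 1.62 (SE 0.06), and 323 bases of its exons overlap another gene on the same strand.

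**Figure D2:**
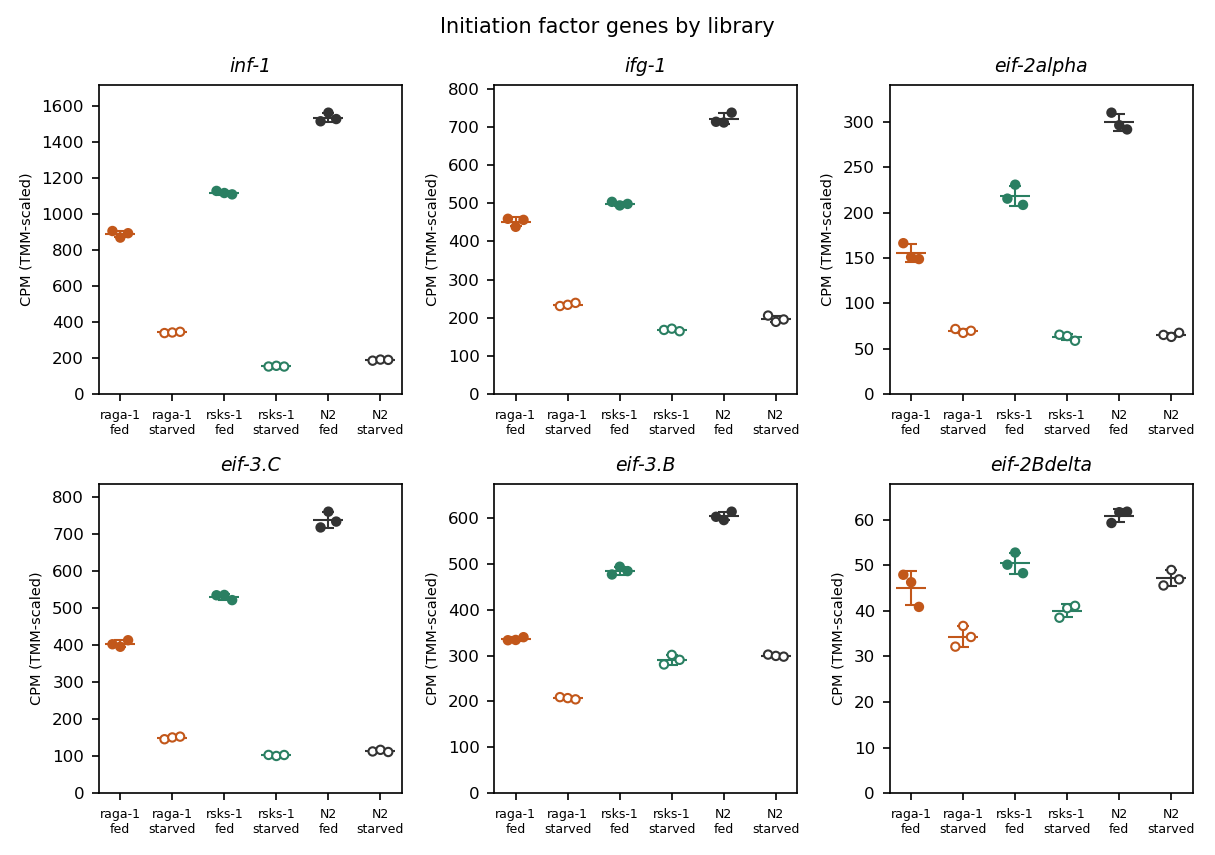
CPM after TMM scaling (y axis, from 0) in each library of the 6 groups (x axis) for 6 initiation factor genes; filled points are fed and open points starved libraries, and the marks with bars are the mean and SD of 3 libraries. For inf-1 and eif-3.C the starved raga-1 libraries stand above the starved N2 libraries and the fed raga-1 libraries below the fed N2 libraries, while for eif-3.B and eif-2Bdelta the raga-1 libraries are below N2 in both states.

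The 5 eIF4E genes, whose proteins bind the mRNA cap, differed from each other in level, in response and in the mutants. Worm IFE-1, IFE-2 and IFE-5 are known to bind the trimethylated cap that trans-splicing adds to many worm mRNAs as well as the ordinary cap, while IFE-3 and IFE-4 bind the ordinary cap. IFE-1 is known from the germline and IFE-2 from the soma. The gene ife-2 (chromosome X, 381385 to 382709, minus strand) changed most on feeding. It had 89.97, 84.6 and 78.9 CPM in fed and 43.5, 42.3 and 39.6 CPM in starved raga-1, 129.8, 128 and 125 CPM in fed and 44.5, 43.04 and 44.3 CPM in starved rsks-1, and 149, 132 and 124 CPM in fed and 41.4, 37.6 and 44.8 CPM in starved N2. Starved libraries of the 3 genotypes overlapped each other, and fed raga-1 libraries were below the other fed libraries. The log2 changes of ife-2 were 1.02 (SE 0.06, adjusted p = 4.14e-33), 1.54 (SE 0.06, adjusted p = 8.79e-49) and 1.71 (SE 0.06, adjusted p = 2.77e-51) in raga-1, rsks-1 and N2. The gene ife-3, the closest to mammalian eIF4E, had 46.5, 53.1 and 53.5 CPM in fed and 36.3, 31.8 and 31.8 CPM in starved raga-1, 79.4, 73.3 and 79.2 CPM in fed and 37.7, 38.7 and 36.7 CPM in starved rsks-1, and 83.7, 88.6 and 86.9 CPM in fed and 33.9, 37.8 and 39.2 CPM in starved N2. Its log2 changes were 0.62 (SE 0.06), 1.03 (SE 0.06) and 1.22 (SE 0.06), and fed stood above starved without overlap in each genotype.

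The gene ife-1 (chromosome III, 13343417 to 13344618, plus strand) moved little on feeding and differed between genotypes in both states. It had 71.5, 69.6 and 68.5 CPM in fed and 57.7, 61.9 and 61.3 CPM in starved raga-1, 156, 177 and 179 CPM in fed and 158, 161 and 158 CPM in starved rsks-1, and 118, 116 and 127 CPM in fed and 90.3, 89.8 and 95.5 CPM in starved N2. All rsks-1 libraries stood above all N2 libraries, and all raga-1 libraries below them, in both states. The log2 change on feeding was 0.21 (SE 0.05, adjusted p = 8.33e-05) in raga-1, 0.10 (SE 0.04, adjusted p = 0.0257) in rsks-1 and 0.39 (SE 0.05, adjusted p = 1.12e-12) in N2. In rsks-1 the fed and starved libraries overlapped. That call was lost without rsks-1 fed replicate 2 (0.08) or 3 (0.07), without rsks-1 starved replicate 1 (0.10) or 3 (0.10), with DESeq2 (0.07) and with relative log expression factors (0.07), and it turned to -0.10 with library totals alone. With library totals alone the N2 call was lost as well (0.09). A stretch of 246 exon bases is shared with another gene on the same strand, so the reads there are uncertain. The summed germline markers were 78.6 to 83.96 CPM in fed and 65.3 to 69.6 CPM in starved raga-1, 50.7 to 54.9 and 37.97 to 39.8 CPM in fed and starved rsks-1, and 74.4 to 86.1 and 59.6 to 63.6 CPM in fed and starved N2. Of the 5 germline genes tested 5 were lower in fed and 4 in starved rsks-1 than in N2, and none was higher. They were thus lowest in rsks-1, where ife-1 was highest, and their part in the ife-1 result was not tested.

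The genes ife-4 and ife-5 were near the lower end of the range. The gene ife-4 averaged 11.1 ± 0.538 CPM in fed and 8.62 ± 0.894 CPM in starved raga-1, 15.03 ± 1.32 and 11.03 ± 1.62 CPM in fed and starved rsks-1, and 12.7 ± 1.03 and 9.27 ± 1.94 CPM in fed and starved N2 (SD, n = 3 each). Its log2 changes were 0.35 (SE 0.13, adjusted p = 0.0111), 0.44 (SE 0.12, adjusted p = 9.27e-04) and 0.44 (SE 0.14, adjusted p = 0.00305). The calls were lost with library totals alone (0.25, 0.24 and 0.14), in raga-1 without raga-1 starved replicate 1 (0.28), and in N2 without N2 starved replicate 1 (0.31). The gene ife-5, a close relative of ife-1, averaged 5.47 ± 0.491 CPM in fed and 4.94 ± 0.280 CPM in starved raga-1, 5.58 ± 1.36 and 4.11 ± 0.776 CPM in rsks-1, and 4.79 ± 0.407 and 4.78 ± 1.31 CPM in N2. Fed and starved libraries overlapped in each genotype, with log2 differences of 0.15 (SE 0.18, adjusted p = 0.485) in raga-1, 0.45 (SE 0.19, adjusted p = 0.0288) in rsks-1 and -0.02 (SE 0.21, adjusted p = 0.940) in N2. The rsks-1 call was lost without rsks-1 fed replicate 2 (0.28) or 3 (0.44), without rsks-1 starved replicate 1 (0.33), with DESeq2 (0.42) and with library totals alone (0.26).

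The shares of ife-1 and ife-2 in the eIF4E set differed between fed and starved larvae of each genotype by more than the spread between libraries. Of the length-scaled level summed over the 5 genes, ife-2 held 42.8 ± 1.79% in fed and 31.99 ± 1.14% in starved raga-1, 36.6 ± 1.56% in fed and 19.9 ± 0.624% in starved rsks-1, and 42.4 ± 2.997% in fed and 25.8 ± 1.71% in starved N2 (SD, n = 3 each). The share of ife-1 was 29.7 ± 0.303% in fed and 38.8 ± 1.74% in starved raga-1, 40.99 ± 1.97% in fed and 60.6 ± 0.410% in starved rsks-1, and 31.8 ± 1.97% in fed and 48.3 ± 1.08% in starved N2. On mean shares ife-2 led the set in fed raga-1 and fed N2, and ife-1 led it in starved larvae of all 3 genotypes and in fed rsks-1. The share of ife-3 ranged over group means from 12.8 ± 0.304% in starved rsks-1 to 20.3 ± 1.03% in fed N2. Its fed and starved libraries overlapped in raga-1 (19.3 ± 1.86% and 19.1 ± 1.36%) and not in rsks-1 or N2. The shares of ife-4 overlapped in raga-1 and rsks-1, and those of ife-5 in rsks-1. The shares were not tested.

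**Figure D3:**
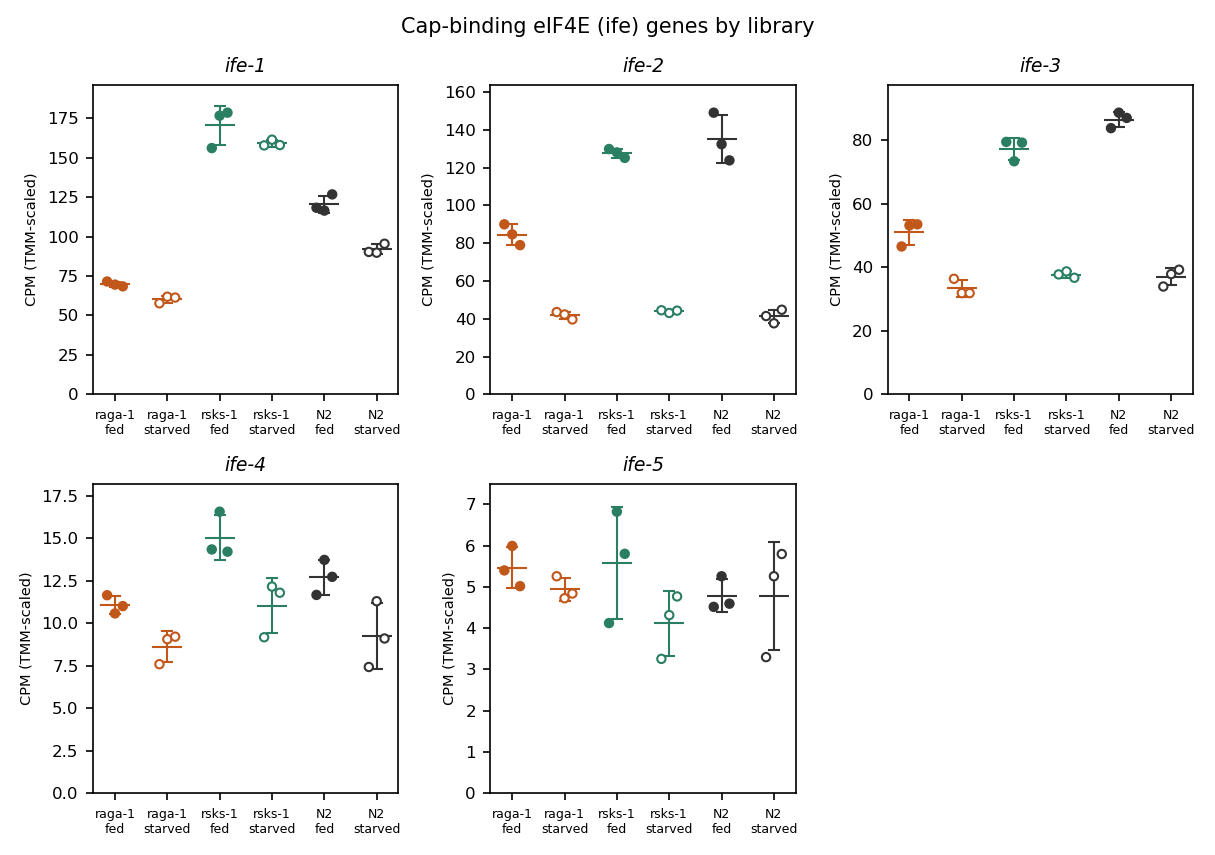
CPM after TMM scaling (y axis, from 0) of the 5 eIF4E genes in each library of the 6 groups (x axis); filled points are fed and open points starved libraries, with mean and SD of 3 libraries. For ife-1 the rsks-1 libraries lie above all others and the raga-1 libraries below, whereas for ife-2 the fed libraries stand apart from starved ones in every genotype.

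Both eIF5A genes, eIF6 and the alternative initiator tRNA carriers were higher on feeding. The main eIF5A gene, iff-2, averaged 1148 ± 15.2 CPM in fed and 812 ± 30.5 CPM in starved raga-1, 1787 ± 71.1 and 1128 ± 13.1 CPM in rsks-1, and 1871 ± 11.5 and 1154 ± 24.4 CPM in N2. Its log2 changes were 0.50 (SE 0.03, adjusted p = 9.12e-35), 0.66 (SE 0.03, adjusted p = 7.08e-47) and 0.70 (SE 0.03, adjusted p = 6.82e-49). The paralogue iff-1, known for its role in the germline, averaged 12.7 ± 0.686 CPM in fed and 8.73 ± 1.12 CPM in starved raga-1, 18.99 ± 1.85 and 11.8 ± 0.749 CPM in rsks-1, and 25.1 ± 0.442 and 11.2 ± 1.15 CPM in N2. It changed by 0.52 (SE 0.12), 0.69 (SE 0.11) and 1.17 (SE 0.11), and its exons share 138 bases with a gene on the other strand. Per length it made up 1.63 ± 0.0908% of the eIF5A level in fed raga-1, 1.57 ± 0.135% in fed rsks-1 and 1.97 ± 0.0455% in fed N2. The gene eif-6, whose product keeps new large ribosomal subunits from joining too early, had 169, 162 and 158 CPM in fed and 72.5, 74.4 and 67.6 CPM in starved raga-1, 221, 237 and 222 CPM in fed and 61.4, 58.95 and 59.5 CPM in starved rsks-1, and 258, 268 and 259 CPM in fed and 52.8, 59.3 and 53.1 CPM in starved N2. These were log2 changes of 1.19 (SE 0.04, adjusted p = 2.25e-53), 1.92 (SE 0.04, adjusted p = 5.97e-75) and 2.25 (SE 0.05, adjusted p = 4.57e-81). The genes eif-2A and eif-2D, whose products can bring tRNA to the ribosome without eIF2, changed by 0.43 and 0.50 in raga-1, 0.68 and 0.74 in rsks-1, and 0.98 and 1.13 in N2.

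Among the elongation factor genes eef-1A.2 changed most on feeding in each genotype. Their median log2 change was 0.41 in raga-1, 0.63 in rsks-1 and 0.51 in N2, beside 0.84, 1.39 and 1.53 for the 34 other genes, a difference between the medians that was not tested. The eIF4E genes, which are among the 34, had medians of 0.35, 0.45 and 0.44. The gene eef-1A.2 (chromosome X, 7823654 to 7825769, plus strand) is one of the 2 genes for the tRNA carrier eEF1A. It had 3194, 2995 and 3162 CPM in fed raga-1, against 1224, 1261 and 1226 CPM in starved raga-1. It had 4342, 4427 and 4315 CPM in fed rsks-1, against 1388, 1377 and 1393 CPM in starved rsks-1, and 6883, 7172 and 6859 CPM in fed N2, against 1100.3, 1109.5 and 1095 CPM in starved N2. The fed groups did not overlap each other, and starved N2 libraries were the lowest of all. The ratio of fed to starved was 2.52 in raga-1, 3.15 in rsks-1 and 6.33 in N2, or log2 changes of 1.33 (SE 0.03, adjusted p = 3.56e-82), 1.65 (SE 0.03, adjusted p = 2.39e-93) and 2.66 (SE 0.03, adjusted p = 8.21e-116).

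The other eEF1A gene, eef-1A.1 (chromosome III, 6970026 to 6971712, minus strand), was already abundant in starved larvae. It had 9327, 9067 and 9109 CPM in fed and 7688, 8201 and 7995 CPM in starved raga-1, 11834, 12274 and 12045 CPM in fed and 9977, 10089 and 9886 CPM in starved rsks-1, and 13444, 13835 and 13206 CPM in fed and 10484, 10547 and 10678 CPM in starved N2. Fed libraries were above starved ones without overlap in each genotype, with log2 changes of 0.20 (SE 0.02, adjusted p = 2.06e-13), 0.27 (SE 0.02, adjusted p = 2.18e-20) and 0.35 (SE 0.02, adjusted p = 2.04e-28). Of the length-scaled eEF1A level, eef-1A.2 held 21.4 ± 0.430% in fed and 11.1 ± 0.206% in starved raga-1, 22.5 ± 0.215% in fed and 10.02 ± 0.146% in starved rsks-1, and 29.3 ± 0.162% in fed and 7.71 ± 0.0985% in starved N2 (SD, n = 3 each). The 2 genes are close in sequence, but their counts were not whole numbers in 1 library each, so at most few of the counted reads were divided between genes. Whether reads that fit both genes were left out before counting cannot be told from these values. For eef-1A.1, 77 exon bases overlap a gene on the other strand.

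The exchange factor genes and eEF2 were higher on feeding in all 3 genotypes, except that eef-1B.1 and eef-2 were not higher in N2 with library totals alone. The change of eef-1B.2, for an exchange subunit, was 0.76 (SE 0.03) in raga-1, 1.09 (SE 0.03) in rsks-1 and 0.67 (SE 0.03) in N2, that of eef-1G, the gamma subunit, 0.50 (SE 0.03), 0.77 (SE 0.03) and 0.66 (SE 0.03), and that of eef-1B.1, the other exchange subunit, 0.31 (SE 0.03), 0.48 (SE 0.03) and 0.24 (SE 0.03). The translocase gene eef-2 had 6794, 6599 and 6816 CPM in fed and 5687, 5803 and 5709 CPM in starved raga-1, 12001, 12060.0 and 11745 CPM in fed and 9135, 9104 and 8901 CPM in starved rsks-1, and 9540.3, 9831 and 9629 CPM in fed and 8093, 8049 and 8058 CPM in starved N2. Fed and starved libraries of each genotype did not overlap, and the highest values were those of fed rsks-1. Its log2 changes were 0.23 (SE 0.02, adjusted p = 1.42e-16), 0.40 (SE 0.02, adjusted p = 2.48e-33) and 0.26 (SE 0.02, adjusted p = 1.00e-19), and with library totals alone the N2 values of eef-2 and eef-1B.1 turned to -0.04 and -0.06.

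**Figure D4:**
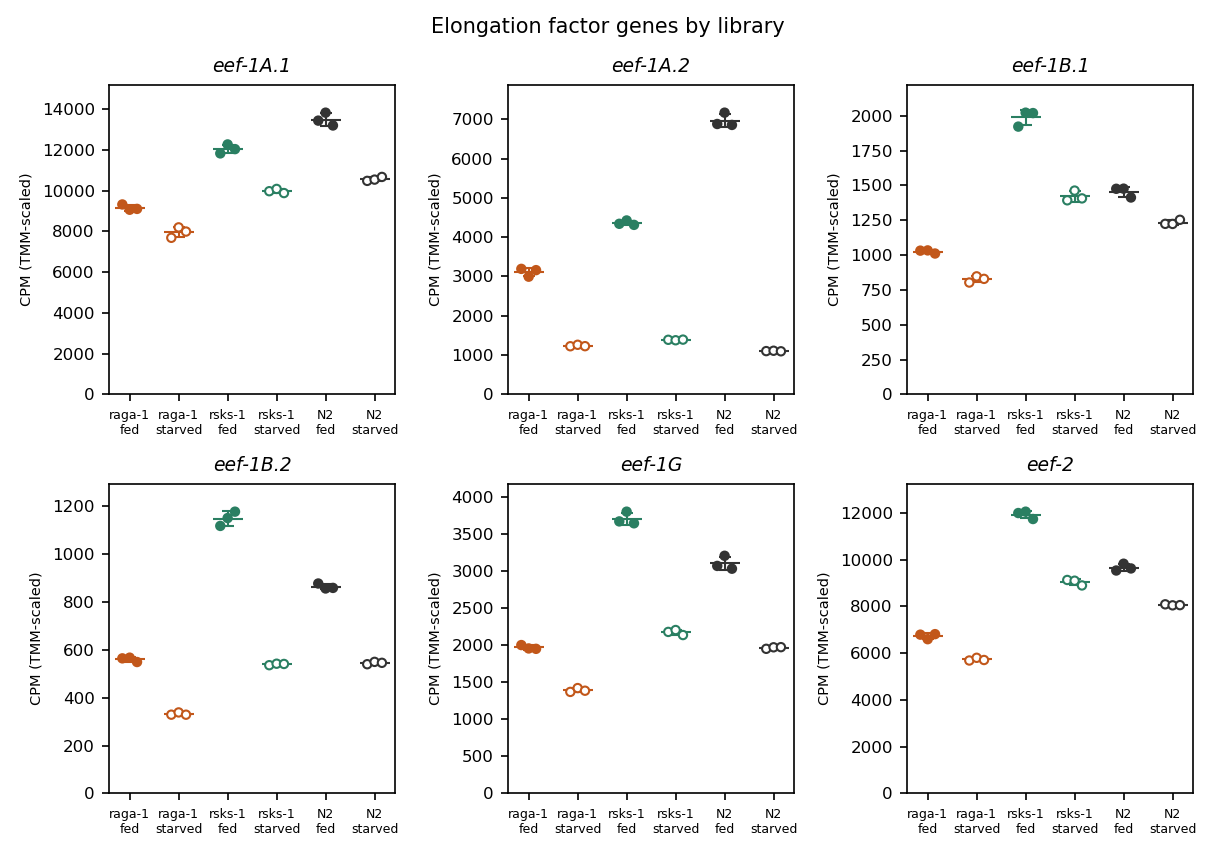
CPM after TMM scaling (y axis, from 0) of the 6 elongation factor genes in each library of the 6 groups (x axis); filled points are fed and open points starved libraries, with mean and SD of 3 libraries. The fed libraries of eef-1A.2 stand far above the starved ones and in the order raga-1, rsks-1, N2, whereas for eef-1B.1, eef-1B.2, eef-1G and eef-2 the fed rsks-1 libraries are the highest.

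Feeding responses were smaller in raga-1 than in N2 for most of the genes. The difference between the responses passed the test for 33 of the 40 genes, all 33 smaller in raga-1, where 28.8% of all genes had a lower log2 change in raga-1 than in N2 and 21.8% a higher one. These shares of all genes include genes that were not higher on feeding. With library totals alone 29 of the 40 genes were lower and 4 higher. The median difference was -0.64, beside -0.03 over all genes tested. Among initiation factors the greatest difference was that of inf-1, -1.64 (SE 0.04, adjusted p = 7.43e-69), followed by eif-3.C at -1.26 (SE 0.05, adjusted p = 5.03e-51), and ifg-1 differed by -0.93 (SE 0.05, adjusted p = 1.06e-39). All 11 eIF3 genes and all 3 eIF2 genes had smaller responses in raga-1, the least different being eif-3.B at -0.31 (SE 0.04) and eif-2gamma at -1.01 (SE 0.05). Every measured subunit of the eIF2 and eIF3 complexes was thus among the 33. Within eIF2B the differences ran from -0.88 (SE 0.10) for eif-2Bepsilon, which passed, to 0.02 (SE 0.09, adjusted p = 0.869) for eif-2Bdelta, which did not. Among the cap-binding genes ife-2 (-0.69, SE 0.08, adjusted p = 1.02e-12) and ife-3 (-0.60, SE 0.09, adjusted p = 3.37e-09) differed, while ife-4 (-0.09, SE 0.19, adjusted p = 0.731) and ife-5 (0.17, SE 0.28, adjusted p = 0.644) did not pass. The ife-1 difference of -0.18 (SE 0.07, adjusted p = 0.0209) lost its call with DESeq2, with only the libraries compared, and without any 1 of N2 fed replicate 3, N2 starved replicates 1 and 2 and raga-1 starved replicates 2 and 3 (-0.16 to -0.14), and turned to 0.02 with library totals alone.

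The elongation factor genes were divided in that comparison. The response of eef-1A.2 was smaller in raga-1 than in N2, with a difference of -1.33 (SE 0.04, adjusted p = 2.07e-65). Smaller differences passed for eef-1G (-0.16, SE 0.04, adjusted p = 1.19e-04) and eef-1A.1 (-0.15, SE 0.03, adjusted p = 7.16e-05), but with library totals alone they turned to 0.04 and 0.05, and with only the libraries compared they did not pass. The values of eef-1B.1, eef-1B.2 and eef-2, 0.07 (SE 0.04), 0.09 (SE 0.04) and -0.03 (SE 0.03), did not pass the threshold, and that of eef-2 turned to 0.17 with library totals alone. With relative log expression factors or library totals alone eef-1B.1 (0.10 and 0.27) and eef-1B.2 (0.11 and 0.29) did pass, as they did with DESeq2, with only the libraries compared (0.17 and 0.19) and without raga-1 starved replicate 2 (0.10 and 0.11), and eef-1B.2 also without raga-1 fed replicate 3 (0.10) or N2 starved replicate 1 (0.10). Of the eIF5A genes iff-1 differed by -0.65 (SE 0.16, adjusted p = 3.48e-04) and iff-2 by -0.20 (SE 0.04, adjusted p = 7.49e-06), the second of which was 0.00 with library totals alone.

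In rsks-1 the responses were closer to those of N2. The difference passed for 26 genes, 22 lower and 4 higher in rsks-1, where 15.8% of all genes were lower and 10.8% higher, and the median difference was -0.21 beside 0.00 over all genes. The greatest difference was that of eef-1A.2, -1.01 (SE 0.04, adjusted p = 6.75e-52). Among the 34 genes that are not elongation factors the greatest were those of eif-3.D (-0.53, SE 0.05, adjusted p = 2.36e-14) and eif-4A3 (-0.49, SE 0.08, adjusted p = 8.97e-08). The eIF2 genes differed by -0.40 (eif-2alpha) to -0.28 (eif-2beta), ifg-1 by -0.31 (SE 0.05, adjusted p = 2.02e-08) and inf-1 by -0.17 (SE 0.04, adjusted p = 0.00118), the last not past the threshold with library totals alone (-0.06). None of the 5 eIF2B genes passed, with differences of -0.20 to -0.04, and eif-3.E differed by 0.03 (SE 0.05, adjusted p = 0.715), which passed with library totals alone (0.13). The initiation factors called in this comparison were thus all lower in rsks-1. The 4 genes with a greater response in rsks-1 were all elongation factors, eef-1B.2 (0.43, SE 0.04, adjusted p = 6.96e-17), eef-1B.1 (0.25, SE 0.04, adjusted p = 7.73e-08), eef-2 (0.14, SE 0.03, adjusted p = 4.40e-04) and eef-1G (0.11, SE 0.04, adjusted p = 0.0150). The call of eef-1G was lost without N2 fed replicate 3 (0.09), rsks-1 fed replicate 2 (0.09) or rsks-1 starved replicate 3 (0.10). The value of eef-1A.1 was -0.08 (SE 0.03, adjusted p = 0.0623), which passed without N2 fed replicate 3 (-0.10) or rsks-1 fed replicate 2 (-0.10), with DESeq2 and with relative log expression factors (-0.10). Among eIF4E genes ife-1 differed by -0.29 (SE 0.06, adjusted p = 1.59e-04), while ife-2 (-0.17), ife-3 (-0.19), ife-4 (0.00) and ife-5 (0.47) did not pass. That of ife-2 passed without N2 fed replicate 3 (-0.23) or N2 starved replicate 3 (-0.24). Of the eIF5A genes iff-1 differed by -0.48 (SE 0.16, adjusted p = 0.0145), a call lost without N2 starved replicate 2 (-0.43) and with library totals alone (-0.38), and iff-2 by -0.03 (SE 0.04, adjusted p = 0.594).

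The size of a mutant's response can be given as the ratio of its log2 change on feeding to that of N2. The median ratio over the 40 genes was 0.532 in raga-1 (SD 0.0189 over the 3 fed libraries) and 0.855 in rsks-1 (SD 0.0148). Each SD was computed from log2 CPM, with the means of the mutant's starved libraries and of the N2 libraries held fixed. It therefore leaves out the spread of those libraries. The ratio has no meaning for ife-5, whose N2 change was near 0. Over the 39 other genes the median was 0.533 in raga-1, with 36 genes below 1, and 0.856 in rsks-1, with 34 below 1. Both ratios share the N2 libraries. For comparison, the median ratio in raga-1 over the 5021 tested genes that were higher on feeding in rsks-1 was 0.468, and that in rsks-1 over the 4143 genes higher on feeding in raga-1 was 0.80. A response smaller than that of N2 was thus not particular to the translation factor genes. A direct test between the mutants found 31 of the 40 responses smaller in raga-1 than in rsks-1 and none greater, where 25.3% of all genes were smaller and 18.8% greater in raga-1. The median of this difference was -0.41, beside -0.04 over all genes. It was greatest for inf-1, at -1.47 (SE 0.04, adjusted p = 2.73e-63), and stood at -0.95 (SE 0.09, adjusted p = 3.03e-16) for eif-3.J, -0.62 (SE 0.05, adjusted p = 4.30e-25) for ifg-1, -0.52 (SE 0.08, adjusted p = 1.55e-08) for ife-2 and -0.32 (SE 0.04, adjusted p = 1.11e-13) for eef-1A.2. It did not pass for eif-3.B (-0.04), eif-2Bdelta (0.06), ife-1 (0.11) or eef-1A.1 (-0.07), but ife-1 passed with library totals alone (0.20) and eef-1A.1 without raga-1 starved replicate 1 (-0.10).

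Set directly against fed N2, fed raga-1 larvae had lower levels of nearly all translation factor genes. Lower were 38 of the 40 and higher none, where 34.4% of all genes were lower and 28.9% higher, and the raga-1 and N2 fed libraries did not overlap for 39 genes, as for 65.2% of all genes. The median log2 difference was -0.75, beside 0.01 over all genes, which with library totals alone became -0.42 and 0.33. The greatest difference was that of eef-1A.2, at -1.16 (SE 0.03, adjusted p = 1.84e-75), whose mean was 3117 ± 107 CPM in raga-1 and 6971 ± 174 CPM in N2. The eIF2 genes were lower as a block, with log2 differences from -1.04 (SE 0.04) for eif-2beta to -0.95 (SE 0.04) for eif-2alpha. Among eIF3 genes eif-3.K differed most (-0.998, SE 0.04) and eif-3.G least (-0.59, SE 0.04), and among eIF2B genes eif-2Bbeta most (-0.93, SE 0.09) and eif-2Bdelta least (-0.44, SE 0.06), and the call of eif-2Bdelta was lost with library totals alone (-0.12). Every complex thus had members among the lower genes. The cap-complex genes inf-1 and ifg-1 were lower, at -0.79 (SE 0.03) and -0.67 (SE 0.03), and so were ife-1, ife-2 and ife-3, at -0.79 (SE 0.05), -0.68 (SE 0.05) and -0.76 (SE 0.06). The values of ife-4 (-0.20, SE 0.13, adjusted p = 0.192) and ife-5 (0.19, SE 0.20, adjusted p = 0.415) did not pass. The eIF5A genes iff-1 and iff-2 differed by -0.98 (SE 0.11) and -0.70 (SE 0.03), and the elongation factors eef-1A.1, eef-1B.1, eef-1B.2, eef-1G and eef-2 by -0.56, -0.51, -0.63, -0.66 and -0.52.

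In starved larvae the raga-1 differences ran in both directions, also within eIF3 and eIF2B. Of the 40 genes 12 were higher and 18 lower in starved raga-1 than in starved N2, where 27% of all genes were higher and 25.7% lower, and with library totals alone the split was 17 higher and 10 lower. The groups did not overlap for 28 genes, beside 57.5% of all genes. Highest in raga-1 was inf-1, with a log2 difference of 0.85 (SE 0.03, adjusted p = 7.66e-53) and a mean of 344 ± 3.55 CPM in raga-1 and 190.3 ± 3.13 CPM in N2. Others higher included eif-4A3 (0.43, SE 0.06, adjusted p = 7.88e-11), eif-3.C (0.40, SE 0.04, adjusted p = 3.36e-19), eif-6 (0.37, SE 0.05, adjusted p = 2.86e-11), eif-1.A (0.32, SE 0.03, adjusted p = 8.44e-15), ifg-1 (0.25, SE 0.03, adjusted p = 3.47e-11) and eif-2Bepsilon (0.25, SE 0.07, adjusted p = 0.00224). Lower in starved raga-1 were, among others, eif-3.B (-0.53, SE 0.03, adjusted p = 8.57e-32), eif-2Bdelta (-0.46, SE 0.06, adjusted p = 4.09e-10), ife-1 (-0.61, SE 0.05, adjusted p = 1.04e-22) and iff-2 (-0.51, SE 0.03, adjusted p = 4.09e-35). The core scaffold of eIF3 was thus split, with subunit C higher and subunit B lower. The eIF2 genes did not pass, at 0.03 to 0.09, but all 3 were higher with library totals alone, at 0.16 to 0.21. Of the elongation factors eef-1A.2 was higher (0.17, SE 0.03, adjusted p = 1.43e-08) and eef-1A.1, eef-1B.1, eef-1B.2, eef-1G and eef-2 were lower, at -0.41, -0.58, -0.72, -0.50 and -0.49. The values of ife-2 (0.01), ife-4 (-0.11) and ife-5 (0.02) did not pass. The ife-3 difference of -0.16 (SE 0.07, adjusted p = 0.0367) was lost without N2 starved replicate 2 or 3 or raga-1 starved replicate 2 or 3 (-0.15 to -0.12), with DESeq2 and with library totals alone (-0.04), and the iff-1 difference of -0.33 (SE 0.12, adjusted p = 0.0162) without N2 starved replicate 1 or raga-1 starved replicate 1 or 2 (-0.29 to -0.26) and with library totals alone (-0.21).

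**Figure D5:**
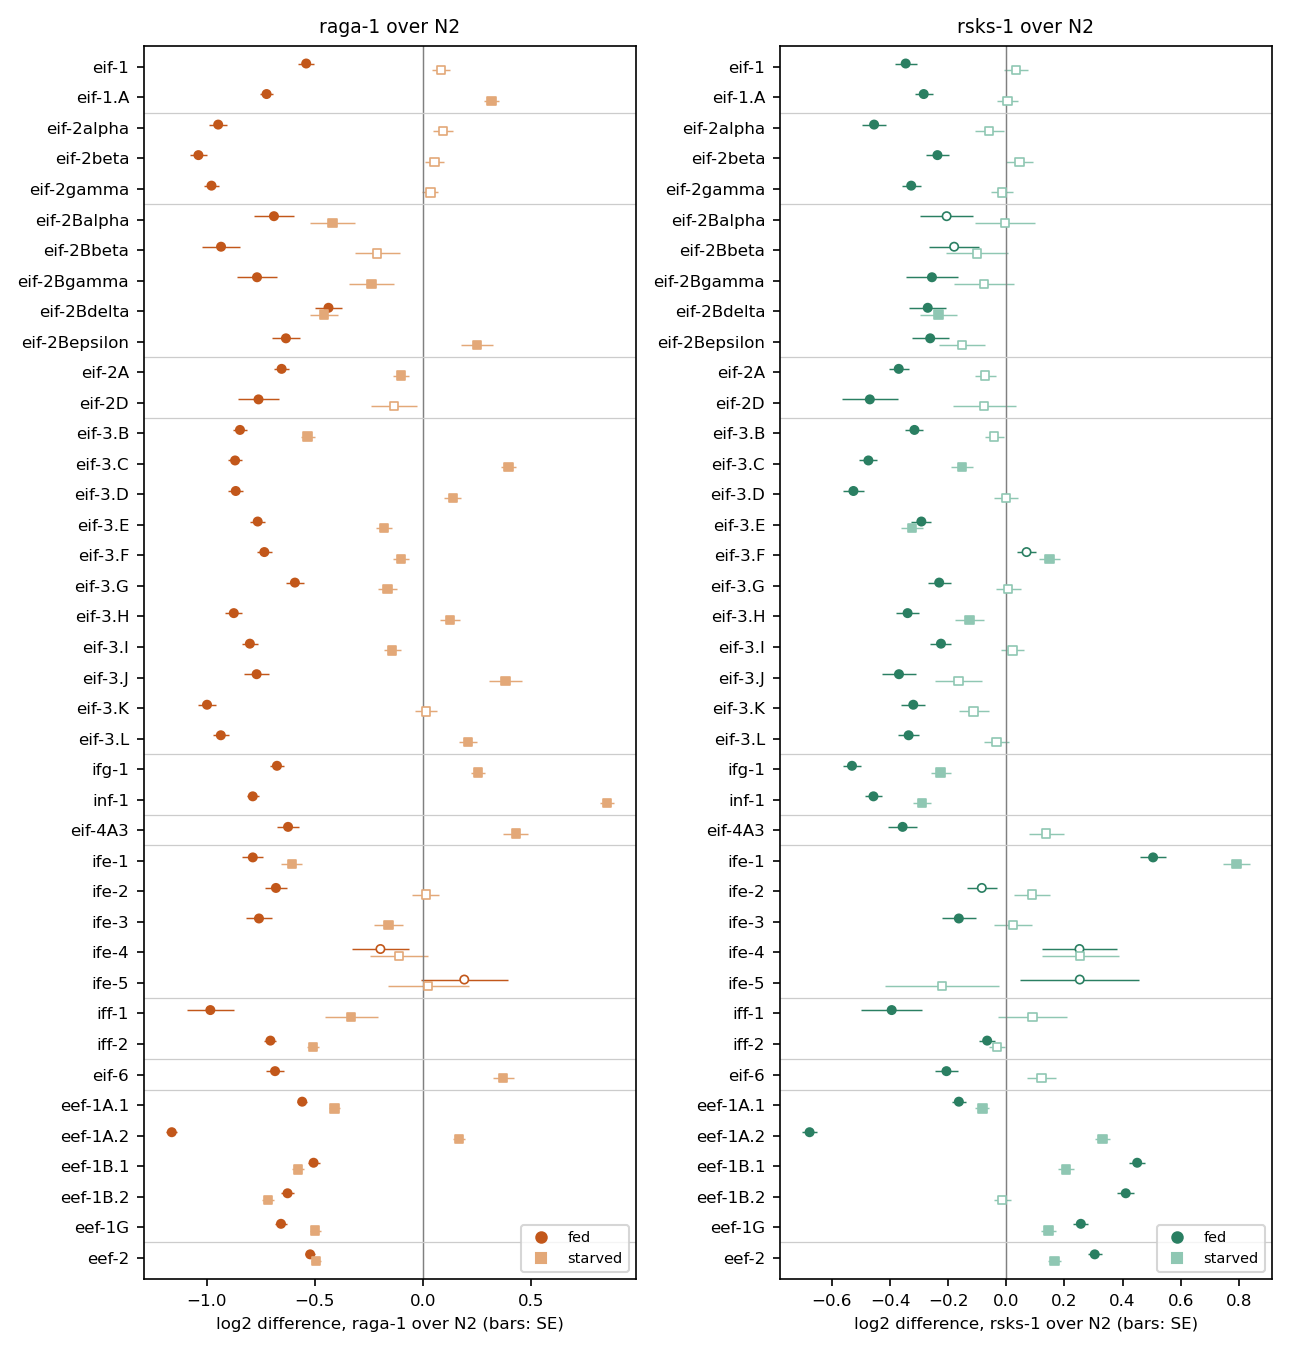
Log2 difference (x axis) of each of the 40 genes (y axis) between raga-1 and N2 (left) and between rsks-1 and N2 (right), in fed (circles) and starved (pale squares) larvae; bars are standard errors, and filled points passed the adjusted p threshold of 0.05. In raga-1 the fed points lie left of 0 for all but ife-5, while starved points scatter on both sides; in rsks-1 most starved points lie near 0, and ife-1 stands at the right in both states (0.50 fed, 0.79 starved).

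Between rsks-1 and N2 the levels differed less. In fed larvae 29 genes were lower and 5 higher in rsks-1, where 22.6% of all genes were lower and 17.4% higher, and the median log2 difference was -0.27, beside 0.00 over all genes. Lowest relative to N2 was eef-1A.2 at -0.68 (SE 0.03, adjusted p = 2.98e-50), followed by ifg-1 (-0.53, SE 0.03, adjusted p = 2.36e-32) and eif-3.D (-0.53, SE 0.04, adjusted p = 5.32e-25), and inf-1 differed by -0.46 (SE 0.03, adjusted p = 1.70e-30). The eIF2 genes were lower, at -0.45 (eif-2alpha) to -0.24 (eif-2beta), and 10 of the 11 eIF3 genes were lower, the other being eif-3.F at 0.07 (SE 0.03, adjusted p = 0.0900). The fed groups did not overlap for 36 of the 40 genes, beside 47.2% of all genes. Within eIF2B the values ran from -0.27 (SE 0.06) for eif-2Bdelta, which passed, to -0.18 (SE 0.09, adjusted p = 0.0840) for eif-2Bbeta, which did not but passed without N2 fed replicate 3 (-0.28). The higher genes came from the cap-binding set and the elongation machinery. Higher in fed rsks-1 were ife-1 (0.50, SE 0.05, adjusted p = 9.10e-19) and the elongation factors eef-1B.1 (0.45, SE 0.03, adjusted p = 9.41e-31), eef-1B.2 (0.41, SE 0.03, adjusted p = 2.99e-26), eef-2 (0.30, SE 0.02, adjusted p = 3.30e-23) and eef-1G (0.26, SE 0.03, adjusted p = 5.74e-16), while eef-1A.1 was lower (-0.16, SE 0.02, adjusted p = 3.14e-09). The rsks-1 and N2 fed libraries did not overlap for any of these 5 higher genes, and the values of ife-2 (-0.08), ife-4 (0.25) and ife-5 (0.25) did not pass, that of ife-2 passing without N2 fed replicate 3 (-0.15). The ife-3 difference of -0.16 (SE 0.06, adjusted p = 0.0176) was lost without N2 fed replicate 2 (-0.15) or rsks-1 fed replicate 2 (-0.13) and with library totals alone (-0.10). That of iff-2, -0.07 (SE 0.03, adjusted p = 0.0484), was lost without any 1 of the N2 fed replicates or of rsks-1 fed replicates 1 and 3 (-0.08 to -0.04), and iff-1 differed by -0.39 (SE 0.11, adjusted p = 0.00127).

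In starved larvae 6 genes were higher and 7 lower in rsks-1 than in N2, where 15.1% of all genes were higher and 11.9% lower, so the share called was near that of all genes. The rsks-1 and N2 starved libraries did not overlap for 16 genes, beside 38.3% of all genes. The gene ife-1 differed most, by 0.79 (SE 0.05, adjusted p = 3.51e-33). The other higher genes were eef-1A.2 (0.33, SE 0.03, adjusted p = 2.41e-22), eef-1B.1 (0.20, SE 0.03, adjusted p = 3.78e-10), eef-2 (0.17, SE 0.02, adjusted p = 2.01e-09), eif-3.F (0.15, SE 0.04, adjusted p = 7.57e-04) and eef-1G (0.15, SE 0.03, adjusted p = 1.77e-06). Lower were eif-3.E (-0.32, SE 0.04, adjusted p = 1.63e-12), inf-1 (-0.29, SE 0.03, adjusted p = 1.29e-13), eif-2Bdelta (-0.23, SE 0.06, adjusted p = 0.00243), ifg-1 (-0.23, SE 0.03, adjusted p = 1.78e-08), eif-3.C (-0.15, SE 0.04, adjusted p = 6.20e-04), eef-1A.1 (-0.08, SE 0.02, adjusted p = 0.00430) and eif-3.H (-0.13, SE 0.05, adjusted p = 0.0396), and the last call was lost when any of N2 starved replicates 1, 2 and 3 or rsks-1 starved replicates 2 and 3 was left out (-0.13 to -0.12). Of the 6 elongation factor genes 4 were thus higher and 1 lower. The eIF2 genes lay at -0.06 to 0.04 and did not pass. The remaining cap-binding and eIF5A genes did not pass either, at 0.09 for ife-2, 0.02 for ife-3, 0.25 for ife-4, -0.22 for ife-5, 0.09 for iff-1 and -0.03 for iff-2, and eef-1B.2 differed by -0.01 (SE 0.03, adjusted p = 0.775). The value of ife-4 passed without N2 starved replicate 2 (0.42). The level of eef-1A.2 was thus higher than N2 in starved and lower in fed rsks-1 larvae, as it was in raga-1.

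Isoform estimates were available for the same libraries. Of the 40 genes 17 had 2 or more coding forms in the isoform table, and in 7 of these 2 forms each held over 5% of the gene's counts in a group. The form F57B9.6a held 93.8 ± 1.06% of inf-1 in fed and 92.3 ± 3.12% in starved raga-1, 90.3 ± 1.22% and 91.00 ± 2.59% in rsks-1, and 93.1 ± 1.47% and 92.5 ± 1.37% in N2 (SD, n = 3 each). For ife-1 the form F53A2.6b held 80.6 ± 6.83% in fed and 87.4 ± 6.64% in starved raga-1, 91.5 ± 0.703% and 89.6 ± 1.36% in rsks-1, and 89.2 ± 3.63% and 91.7 ± 2.34% in N2. For eif-3.L the form C17G10.9b held 61.1 ± 2.34% and 59.7 ± 3.66% in fed and starved raga-1, 63.9 ± 1.24% and 72.01 ± 0.4997% in fed and starved rsks-1, and 64.2 ± 4.46% and 60.1 ± 6.52% in fed and starved N2. In raga-1 and N2 the fed and starved libraries overlapped for all 3 of these forms. In rsks-1 they overlapped for the inf-1 form and did not overlap for the ife-1 and eif-3.L forms. These 3 genes are examples and do not stand for the rest. For the ifg-1 form M110.4b the N2 libraries did not overlap, at 13.5 to 14.8% in fed and 16.3 to 17.8% in starved larvae. Its raga-1 and rsks-1 libraries overlapped. For the main eef-1G form, F17C11.9a, the N2 libraries (97.7 to 98.3% and 96.0 to 96.6%) and raga-1 libraries did not overlap, and the rsks-1 libraries did. The shares of eif-2Bdelta forms had an SD of up to 16.5 percentage points, and 2 forms of ifg-1 had the same value in every library, so the estimates could not separate them.

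Other genes of the translation pathway, outside the naming rule, gave a more mixed picture. Of 22 genes on a list of translation regulators, termination factors and modifiers, 19 were found by name and tested. On feeding 12 were higher and 7 lower in raga-1, 14 higher and 5 lower in rsks-1, and 13 higher and 6 lower in N2, with median log2 changes of 0.63, 1.05 and 1.09. Among all genes tested 29.4% were higher and 32.9% lower in raga-1, 35.7% and 35.2% in rsks-1, and 36.5% and 37.4% in N2. The release factor gene erfa-1 changed by 1.35 (SE 0.04, adjusted p = 2.28e-65) in raga-1, 2.29 (SE 0.04, adjusted p = 1.06e-87) in rsks-1 and 2.69 (SE 0.04, adjusted p = 3.71e-96) in N2, and abce-1, the ribosome recycling factor, by 1.31 (SE 0.04), 2.33 (SE 0.04) and 2.67 (SE 0.04). The kinase gene mnk-1, whose relatives in mammals phosphorylate eIF4E, was lower on feeding. It averaged 399.7 ± 9.09 CPM in fed and 704 ± 23.1 CPM in starved raga-1, 204 ± 11.7 and 835 ± 18.4 CPM in rsks-1, and 253 ± 18.3 and 937 ± 30.98 CPM in N2, log2 changes of -0.82 (SE 0.04), -2.03 (SE 0.04) and -1.89 (SE 0.04). An eIF2alpha kinase gene, pek-1, was lower on feeding as well, at -0.53 (SE 0.06), -1.23 (SE 0.07) and -0.84 (SE 0.07), and so was efk-1, the eEF2 kinase gene, at -0.26 (SE 0.05), -0.53 (SE 0.06) and -0.71 (SE 0.06). Another eIF2alpha kinase gene, gcn-2, was higher on feeding. It averaged 39.6 ± 2.88 CPM in fed and 32.0 ± 2.87 CPM in starved raga-1, 31.8 ± 2.73 and 27.7 ± 2.90 CPM in rsks-1, and 49.5 ± 4.44 and 32.9 ± 1.84 CPM in N2. Its rsks-1 call (0.21) was lost with DESeq2 (0.18), with library totals alone (0.01) and without rsks-1 fed replicate 3 (0.14) or starved replicate 2 (0.13).

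The enzymes that make hypusine, the modified residue unique to eIF5A, moved in opposite directions on feeding. The first enzyme, dhps-1, changed by 0.66 (SE 0.10), 1.20 (SE 0.10) and 1.09 (SE 0.10) in raga-1, rsks-1 and N2. The second, dohh-1, had 109, 100.1 and 109 CPM in fed and 131, 137 and 131 CPM in starved raga-1, 246, 267 and 248 CPM in fed and 307, 298 and 297 CPM in starved rsks-1, and 116, 119.9 and 105 CPM in fed and 268, 265 and 271 CPM in starved N2. Fed and starved libraries did not overlap in any genotype, and fed N2 libraries were far below starved N2 libraries while the rsks-1 groups were close to each other. Its log2 changes on feeding were -0.32 (SE 0.04, adjusted p = 1.61e-12), -0.24 (SE 0.04, adjusted p = 2.55e-09) and -1.24 (SE 0.04, adjusted p = 6.35e-58), and the difference between rsks-1 and N2 responses was 0.99 (SE 0.05, adjusted p = 1.77e-34). Of the 19 genes abcf-2 and pab-2 were called in opposite directions in different genotypes. The first, an ABC-F family gene, was lower on feeding in raga-1 and N2 and higher in rsks-1. It averaged 771 ± 22.4 CPM in fed and 953 ± 16.7 CPM in starved raga-1, 2578 ± 33.6 and 2142 ± 14.2 CPM in fed and starved rsks-1, and 918 ± 16.2 and 1949 ± 6.34 CPM in fed and starved N2. Its log2 change was -0.31 (SE 0.03, adjusted p = 5.67e-20) in raga-1, 0.27 (SE 0.03, adjusted p = 2.51e-17) in rsks-1 and -1.09 (SE 0.03, adjusted p = 5.50e-71) in N2, and the rsks-1 response differed from that of N2 by 1.35 (SE 0.04, adjusted p = 1.19e-63). The poly(A)-binding protein gene pab-2 changed by -0.13 (SE 0.04, adjusted p = 0.00457), 0.18 (SE 0.04, adjusted p = 1.06e-04) and 0.42 (SE 0.04, adjusted p = 3.37e-16), and in rsks-1 it turned to -0.02 with library totals alone. The raga-1 call of pab-2 was lost without raga-1 fed replicate 2 (-0.10) and with only the libraries compared (-0.09).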

How the data were processed

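RNA-seq of 18 libraries of whole L1 larvae was used. As deposited, 1 table gives expected counts of genes and another those of isoforms. Per the labels' protocols the authors aligned reads with STAR in a 2-pass mode to a genome named WBcel269, and per the submitters' processing notes they used RSEM and DESeq2 (versions and roles not stated). The unit was read from the values, which are not scaled to depth or length, and 0.962% of which are not whole. Neither the library kit nor the strand setting of the counting is stated. Gene names were looked up in the Ensembl annotation of WBcel235, which also gave coordinates and exon lengths, and 2887 of the 46904 gene IDs had no name there.

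Counts were rounded. Genes passing filterByExpr of edgeR 4.0.16 (R 4.3.3; minimum count 10), 14073 in all, were fitted with 1 mean per group over all 18 libraries, TMM factors and the robust quasi-likelihood test, with 12 residual degrees of freedom. Differences between feeding responses are contrasts of 4 group means. P-values were adjusted by Benjamini-Hochberg over all genes tested, with a threshold of 0.05, and the SE is the log2 change over the root of the test statistic. The test was tried on simulated data. Of simulated 1.25-fold changes 20 of 48 were called for feeding in N2 and 12 of 50 for the raga-1 minus N2 response. For starved rsks-1 against N2 it was 23 of 47. At 2-fold 38 of 46, 37 of 50 and 43 of 50 were called, in the same order. Of unchanged genes 10 of 13554, 10 of 13522 and 5 of 13516 were called. Small changes were thus often missed. CPM use the TMM library sizes. Levels per kilobase divide CPM by the length of merged exons of all annotated forms. Exons of forms with few counts are included, which can lower a gene's level per kilobase and shift the shares taken from it. Tables were handled with pandas 2.3.3. Totals from 9929323 to 18539402 limit precision for genes such as ife-5, which had few counts.

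Alternatives were relative log expression factors, library totals alone, no filter, isoform sums, only the libraries compared, the replicate number as a block, each library left out, and DESeq2 1.42.0. Genes described by name were all those of the ife, iff, ifg, inf and eef families and, within each other complex, those with the greatest and least changes; other eIF3 and eIF2B genes, and the related genes described, were chosen after their values were seen. The members and lists were chosen with earlier results of these data known.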

Additional observations from a re-analysis of the deposited data

Results flagged for a closer look

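The feeding response differed between genotypes by a test of the difference itself (edgeR, Benjamini-Hochberg adjusted p below 0.05) for 33 of the 40 genes between raga-1 and N2, for 26 between rsks-1 and N2, and for 31 between raga-1 and rsks-1. Of all 14073 genes tested 28.8% were lower and 21.8% higher in the first comparison, 15.8% and 10.8% in the second, and 25.3% and 18.8% in the third. The first and second of these comparisons share the N2 libraries. The third uses the raga-1 libraries of the first and the rsks-1 libraries of the second, so the counts are not independent.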

How the results depend on the processing

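The 10 counts of translation factor genes called stayed within 1.5 times their values under every alternative, and the replicate block changed none of them. It gave 39, 40 and 39 genes for feeding in raga-1, rsks-1 and N2, 33, 26 and 31 for the differences in response of raga-1 from N2, rsks-1 from N2 and raga-1 from rsks-1, 38 and 30 for raga-1 against N2 fed and starved, and 34 and 13 for rsks-1 against N2 fed and starved. Same-numbered libraries did not deviate together (correlations from -0.041 to 0.032). Leaving out 1 library at a time gave 38 to 39, 38 to 40 and 38 to 39 genes for feeding in raga-1, rsks-1 and N2, 32 to 34, 24 to 26 and 30 to 31 for the differences in response, 38 in each case and 25 to 29 for raga-1 fed and starved, and 32 to 34 and 12 to 14 for rsks-1 fed and starved. Of 5920 single-gene values under alternatives 5747 kept their call or lack of one, 116 lost the call and 46 gained it. A further 11 changed sign and were called in the main fit or under the alternative. Sign changes of values called in neither were not counted apart and are among the 5747.

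All 11 of these sign changes, of values called in the main fit or under the alternative, came with library totals alone. The log2 values were -0.063 for eef-1B.1 and -0.041 for eef-2 on feeding in N2, and -0.095 for ife-1 on feeding in rsks-1. For the raga-1 minus N2 response they were 0.17 for eef-2, 0.051 for eef-1A.1, 0.042 for eef-1G, 0.020 for ife-1 and 0.0026 for iff-2. In starved raga-1 against N2 they were 0.020 for eif-3.F and 0.019 for eif-2A, and in fed rsks-1 against N2 0.0018 for iff-2. Among other translation genes in fed raga-1 against N2 they were 0.069 for abcf-2 and 0.22 for dohh-1, and on feeding in rsks-1 -0.018 for pab-2. The gcn-2 value in fed raga-1 against N2 went to 0.00, and its call was lost. That scaling moved the median ratio of response to 0.563 in raga-1 and 0.893 in rsks-1, and the number of the 19 other translation genes called for the rsks-1 minus N2 response was 9, beside 15 with TMM factors.

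Shares within families taken from counts without length scaling were, for ife-1, 31.5% in fed raga-1, 43.0% and 62.2% in fed and starved rsks-1, and 49.9% in starved N2. For ife-2 they were 38.1% and 28.0% in fed and starved raga-1, 32.3% and 17.2% in rsks-1, and 37.5% and 22.4% in N2. For eef-1A.2 they were 25.4% and 13.5%, 26.6% and 12.2%, and 34.1% and 9.44% in the same groups. The causes were not tested. Genes with few counts, such as ife-4 and ife-5, are limited by depth.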
